A study of Mus musculus with 57 samples.

Results

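Colon tumors of INSRfl/fl mice were set against the untreated distal colon of mice of the same genotype. The comparison holds 8 tumor samples and 10 untreated samples, chosen by their genotype and treatment labels, of the 57 arrays in the series. A further 10 samples of colon from fl/fl mice given azoxymethane and dextran sodium sulphate (AOM+DSS), whose titles do not name a tumor, were placed between the 2 groups to show where each change lay along the way. All mice were C57BL/6 females of 18 to 24 weeks. The fl/fl animals are littermates that carry the floxed insulin receptor gene without Cre, so the receptor is intact in them; the knockout animals used at the end carry villin-CRE, which acts in the epithelium of the intestine, on the same allele (10 untreated samples and 9 tumors). Treated mice received AOM at 7.4 mg/kg into the peritoneum and DSS at 3% for 7 days in week 2, and tissue was taken in week 5. The source label reads distal colon for the tumors too, and the labels do not say which tumor and which colon sample came from the same mouse. Each sample was 250 ng of RNA on a whole-transcript mouse array, and the labels call the replicates biological.

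AOM is a carcinogen that alkylates DNA in the colon, and DSS is a polymer that injures the mucosa and brings on inflammation and repair. Tumors of this model are known for activation of the Wnt pathway. The step at which it is activated in them was not tested. In the normal crypt base, Wnt ligands bind Frizzled and LRP receptors, and beta-catenin escapes degradation, enters the nucleus and acts with TCF and LEF factors. Its targets include feedback inhibitors of the pathway itself and genes of stem cells, while differentiated cells of the crypt mouth (absorptive colonocytes, goblet cells, enteroendocrine cells) carry out transport, mucus secretion and hormone release.

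Levels are log2 values from robust multi-array averaging (RMA), in which a difference of 1 is a 2-fold difference; this summary compresses differences of dim transcripts, and the number of arrays, not read depth, limits the precision. Where 3 log2 levels follow a group's name they are its lowest, median and highest sample. Changes are differences of group means ± SE, and a change "passed" at a limma adjusted p under 0.05 over 22180 genes. The fl/fl groups hold 8 tumors, 10 untreated and 10 AOM+DSS samples throughout. SE and adjusted p come from a model of all 57 arrays, so knockout arrays enter each gene's estimate of spread. A fit on the 3 fl/fl groups alone gave 9847 genes passing between tumor and untreated colon, in place of 10063. The tissue is bulk colon, in which fewer cells of a type and less RNA per cell cannot be told apart.

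One AOM+DSS library stood apart before any comparison. Replicate 7 had a mean of 10.48 over 15 small-intestinal enterocyte genes, against 7.94 in the next highest AOM+DSS sample, and a mean of 10.49 over 11 Paneth-type and Reg genes, against 8.37. Markers of stratified squamous epithelium, which lines the anal canal, ranged from 5.40 to 8.73 in the untreated samples, 5.34 to 9.46 in AOM+DSS colon and 5.81 to 8.78 in the tumors, so some libraries of each group held such transcripts. Genes of colon were otherwise present in the 3 groups, at lower levels in tumors. Car1, a carbonic anhydrase of colonocytes, had medians of 13.01, 12.73 and 11.75, and the posterior homeobox gene Hoxb13 of 9.03, 8.78 and 8.08. The mean of 6 posterior homeobox genes ran from 8.50 to 9.09 in untreated colon and from 6.67 to 8.89 in tumors.

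Tumors differed from untreated colon in 10063 of 22180 genes (45.4%), of which 5075 were higher (22.9%) and 4988 lower (22.5%). The change was at least 2-fold for 671 rises and 676 falls, and at least 4-fold for 184 rises and 123 falls. In 1991 genes every tumor lay above every untreated sample (8.98%), and in 1833 every tumor lay below (8.26%). With close to every second gene past the threshold, a count of list members is read against these shares. With the mean of 12 smooth muscle genes as a covariate, an alternative chosen after seeing the data, 2909 of 22180 genes passed (1568 higher and 1341 lower). A count of list members under this covariate is read against these smaller counts. The smooth muscle mean itself did not overlap between the groups (11.08 to 11.47 untreated, 9.14 to 10.17 in tumors). Of the 172 described genes that passed, 34 kept their sign but no longer passed with this covariate. A further 4 turned sign and did not pass either (Irs2, Hoxd13, Krt20 and Slc9a3). The sizes behind the lost calls differed: Hunk stood at 0.70 in place of 0.76, Ly6m at 0.91 in place of 0.94 and Cldn18 at 0.40 in both, whereas Chrdl1 stood at -0.40 in place of -2.12, Igfbp6 at -0.15 in place of -1.49, Nkd2 at -0.36 in place of -1.22 and S100a8 at 0.75 in place of 2.39. The other described genes that lost their call were Insr, Cxcl9, Trpm5, Reg3g, Nos2, Mcm4, Top2a, Mki67, Pik3r1, Igfbp2, Fcgr1, Mmp9, Synm, Acta2, Anxa10, Gkn3, Atp12a, Ceacam20, Erbb2, Erbb3, Ereg, Guca2b, Isx, S100a9, Scnn1g, Spink4 and Vil1. Of these, Synm and Acta2 belong to the smooth muscle list, so the covariate contains them. The counts leave out Dclk1, Gnat3 and Rgs13 of the tuft cell list, none of which passed as lower in this fit. Many lists are given with their value under this covariate where they are described, and a list without one can have moved too. Wnt targets had 17 higher and 0 lower (median 1.73), stem cell genes 7 higher and 3 lower (0.71). Genes of epithelial repair had 9 higher and 0 lower (0.87). Detoxification enzymes had 14 lower and 1 higher (-1.95), goblet cell genes 10 lower and 0 higher (-0.99). Fatty acid oxidation had 14 lower and 0 higher, oxidative phosphorylation 14 lower and 1 higher. With the covariate surface colonocyte genes had 10 lower and 0 higher, and mast cell genes 6 higher and 1 lower. Enteroendocrine genes had 10 lower and 1 higher, and small-intestinal enterocyte genes 1 lower and 0 higher.

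The largest rise belonged to Mmp7, a secreted metalloprotease known from intestinal tumors and Paneth cells. Its levels were 5.38, 5.99 and 6.53 in untreated colon, 5.68, 6.66 and 8.20 in AOM+DSS colon and 11.87, 12.29 and 12.53 in tumors, a rise of 6.26 ± 0.26 or 76.4-fold (adjusted p = 4.98e-28). Wif1, a secreted protein that binds Wnt ligands, went from 6.10, 6.53 and 6.76 to 12.02, 12.30 and 12.69, or 54.9-fold. Prox1, a homeobox factor, went from 5.67, 6.06 and 6.49 to 10.65, 11.43 and 11.74, or 39.9-fold. For these 3 genes the highest AOM+DSS sample was far below the lowest tumor, and the SE was a small part of the change.

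Several of the other large rises belong to secreted enzymes. Pnliprp1, a lipase relative best known from the pancreas, was at 5.12, 5.93 and 6.14 in untreated colon and 10.34, 11.30 and 11.41 in tumors, a 39.6-fold rise (5.31 ± 0.15). Its paralog Pnliprp2 rose 21.7-fold (4.44 ± 0.32). Notum, an enzyme that removes the lipid from Wnt ligands, had the smallest adjusted p of the 15 largest rises: 5.18, 5.57 and 6.02 against 10.20, 10.72 and 10.94, or 33-fold (adjusted p = 2.84e-41). Pla2g2a, a secreted phospholipase, rose 22.4-fold and Tnfrsf11b, the decoy receptor osteoprotegerin, 22.9-fold. The remaining genes of the 15 were Clca4b, the metallothionein Mt4, the lysozyme Lyz1, the proteoglycan Spock2, the acute-phase protein Saa3, the lectin Itln1, the cyclic-GMP-dependent kinase Prkg2 and the mast cell protease Mcpt1, with rises of 4.55 to 5.46. In all 15, every tumor lay above every untreated sample.

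Mptx1 fell most, 32.5-fold. This mucosal pentraxin of the colon stood at 10.87, 11.32 and 11.69 in untreated colon, 8.12, 9.54 and 10.68 in AOM+DSS colon and 5.20, 5.90 and 7.59 in tumors, a fall of 5.02 ± 0.35 (adjusted p = 2.39e-18). Cyp2c55, a cytochrome P450 of the large intestine, stood at 12.50, 12.89 and 13.21 in untreated colon and at 5.90, 8.25 and 11.03 in tumors. The tumors differed more among themselves here than they did for Mmp7 or Notum, yet all 8 lay below the lowest untreated sample. Aqp8, a water channel of surface colonocytes, fell 20.5-fold, and Slc26a3, the apical chloride-bicarbonate exchanger, fell 15.5-fold from 12.34, 12.65 and 12.80 to 7.04, 8.73 and 10.65. Other members of the 15 largest falls were the phosphate-coupled sugar exchanger Slc37a2, the transglutaminase Tgm3, the carbonic anhydrase Car4, Cyp2d12, Cyp2c68, the hydroxyacid oxidase Hao2, the sulfotransferase Sult1a1, the steroid dehydrogenase Hsd3b3, the secretory granule protein Sycn, the peptidase Naaladl1 and the serotonin transporter Slc6a4. For all 15, every tumor lay below every untreated sample.

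**Figure D1:**
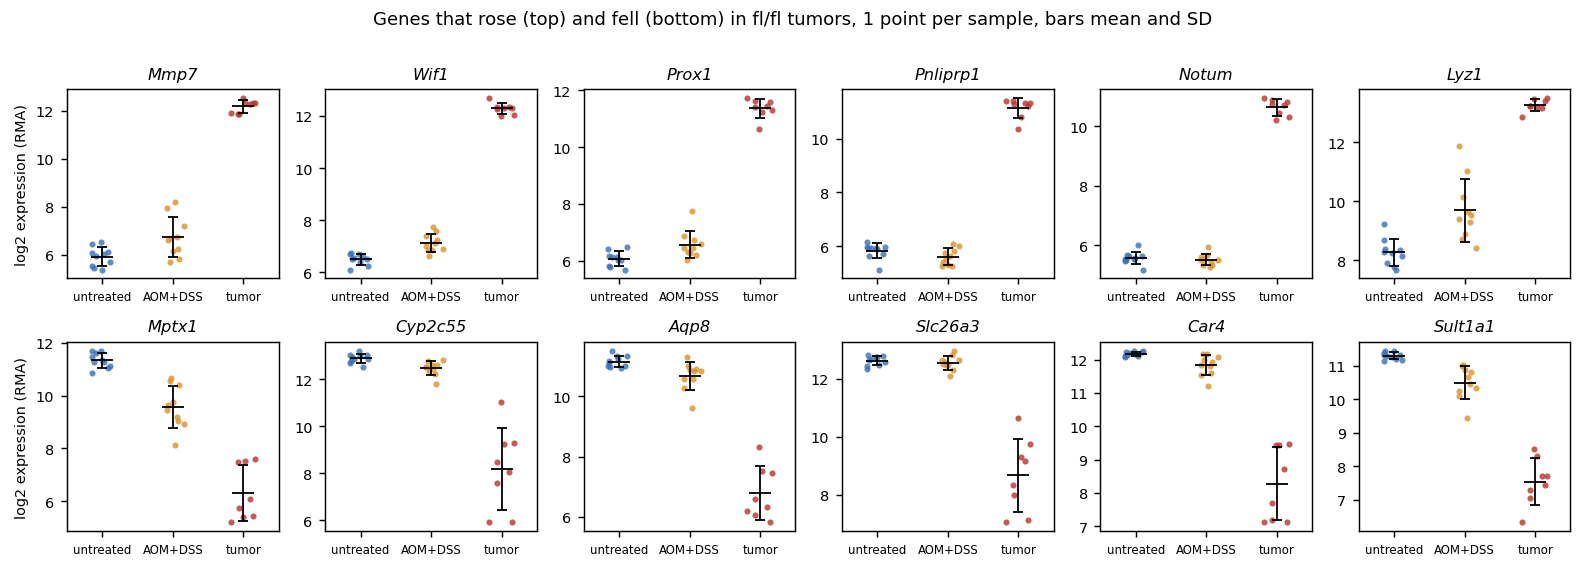
Log2 expression of 6 of the 15 genes that rose most and 6 of the 15 that fell most in fl/fl tumors; each point is 1 sample (10 untreated, 10 AOM+DSS, 8 tumors), and bars give the mean and SD. Tumor points of the upper row form tight clusters (Mmp7 at 11.87 to 12.53), while those of the lower row are spread (Cyp2c55 at 5.90 to 11.03), and no tumor point overlaps an untreated point.

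Among 22 measured Wnt targets, 18 rose and 1 fell, against 22.9% and 22.5% of all genes, and the median change was 1.62 (all genes, -0.03). The mean over the list ran from 7.19 to 7.47 in untreated colon, 7.23 to 7.55 in AOM+DSS colon and 8.79 to 9.60 in tumors, so tumors stood apart from both. The promoter of Sp5, a zinc-finger factor induced by Wnt signalling, shows the letters that TCF and LEF factors are known to bind. The stretch is chr2:70474789-70474855 on the plus strand (RefSeq, GRCm38.p6), 5′ to 3′, with the match to CTTTGAT in capitals, at 104 to 98 bases before the start:
Sp5: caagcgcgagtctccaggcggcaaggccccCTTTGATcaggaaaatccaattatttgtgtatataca
Sp5 itself stood at 5.31, 5.82 and 6.24 in untreated colon and 6.46, 7.24 and 7.77 in tumors (1.40 ± 0.12). It was the only one of the 17 listed genes with a promoter in the table to hold ATCAAAG or CTTTGAT within 250 bases upstream, which is 4.3% of their 23 promoters against 3.2% of all 32851 promoters. No match says only that these letters are not in this window.

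Secreted inhibitors of Wnt signalling were among the strongest. Besides Wif1 and Notum, Dkk2, a ligand of LRP receptors, went from 5.72, 6.25 and 6.63 to 8.54, 9.99 and 10.75 (3.57 ± 0.16). Apcdd1, a membrane-bound inhibitor, went from 6.59, 6.76 and 7.07 to 9.75, 11.13 and 11.80, a 17.3-fold rise. Dkk3 rose by 0.57 ± 0.10 with overlapping groups, and Dkk4, at 5.46 and 5.48 in the medians of untreated colon and tumors, did not pass. Inside the cell, Nkd1, which binds Dishevelled, rose 9.93-fold, whereas its paralog Nkd2 was the member that fell, from 7.42, 8.01 and 8.31 to 6.44, 6.73 and 7.05 (-1.22 ± 0.11). The scaffold of the destruction complex Axin2 rose 5.07-fold, and the ligases that remove Frizzled from the membrane, Rnf43 and Znrf3, rose by 1.82 ± 0.09 and 1.43 ± 0.10.

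Transcription factors of the list rose as well: Lef1, the nuclear partner of beta-catenin, by 2.67 ± 0.10, Sox4 by 2.54 ± 0.09 and Sox9 by 0.71 ± 0.13. Every tumor exceeded every untreated sample for Lef1 and Sox4, but not for Sox9 (9.82 to 10.55 against 10.21 to 11.30). The adhesion receptor Cd44 rose 3.88-fold and was already higher in AOM+DSS colon. For the list as a whole the median change from untreated to AOM+DSS colon was -0.06, with 4 members higher and 2 lower, against 12.2% and 10.5% of all genes.

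Genes of the intestinal stem cell gave a split result, with 8 of 12 higher and 3 lower. Lgr5, the R-spondin receptor that marks crypt base stem cells, stood at 7.39, 7.61 and 8.19 in untreated colon, 5.99, 6.92 and 7.66 in AOM+DSS colon and 9.85, 10.34 and 10.66 in tumors. It was thus lowest in AOM+DSS colon and 6.06-fold above untreated colon in tumors (adjusted p = 1.74e-23). Tnfrsf19, also called Troy, rose by 2.03 ± 0.10, Smoc2 by 1.55 ± 0.10 and the RNA-binding protein Msi1 by 1.11 ± 0.10. The water channel Aqp4 (-1.62 ± 0.22), the BMP co-receptor Rgmb (-0.82 ± 0.08) and Lrig1, a brake on EGF receptors (-0.67 ± 0.09), fell. Olfm4, with a change of 0.82 ± 0.55, did not pass.

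Of 15 genes linked to epithelial repair, 13 rose and 1 fell, with a median of 1.22. The keratin Krt23 rose 8.55-fold from 5.97, 6.48 and 7.00 to 8.71, 9.67 and 9.99. Ly6d (2.57 ± 0.30), the chaperone clusterin Clu (1.78 ± 0.14), the urokinase receptor Plaur (1.74 ± 0.15) and Krt7 (1.45 ± 0.08) rose. The members did not share a course: in AOM+DSS colon Ly6d was already 2.10 higher, while Krt23 differed from untreated colon by -0.01.

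All 13 matrix proteases and their partners on the list rose, with a median of 1.69. After Mmp7 came Mmp10, at 5.94, 6.30 and 6.67 in untreated colon and 9.98, 10.63 and 11.69 in tumors (20.3-fold), the collagenase Mmp13 (10-fold), the macrophage elastase Mmp12 (2.90 ± 0.18) and the gelatinase Mmp9 (2.42 ± 0.22). The inhibitor Timp1 rose by 1.69 ± 0.13. In 10 of the 13, every tumor lay above every untreated sample. With the smooth muscle covariate 8 of the 13 passed (median 1.17).

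Paneth cells are rare in normal mouse colon, and their products were uneven among genes: 6 of 11 Paneth-type and Reg genes rose, 1 fell and the median was 2.56. Lyz1 stood at 7.68, 8.27 and 9.23 in untreated colon, 8.41, 9.47 and 11.87 in AOM+DSS colon and 12.87, 13.24 and 13.51 in tumors (31.9-fold). Itln1 rose 28.4-fold and Reg3g, an antibacterial lectin, by 4.03 ± 0.68; Reg3b (0.99 ± 0.71), Reg1 (0.48 ± 0.70) and Reg4 (0.13 ± 0.10) did not pass. Of 10 alpha-defensin genes, a family looked at after values were seen, 7 rose; their transcripts are nearly identical, so which of them changed is uncertain. Small-intestinal enterocyte genes measured beside them did not rise: 0 of 15 were higher and 4 lower, and their mean ran from 6.11 to 8.82 in tumors and 6.74 to 8.20 in untreated colon. Without AOM+DSS replicate 7 the median change of the Paneth-type list from untreated to AOM+DSS colon was 0.37 in place of 0.81. Under the smooth muscle covariate 2 of the 11 were higher in tumors (median 1.18).

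Gene products of the stomach and pancreas appeared on a list of 15, of which 8 rose and 0 fell. Besides both lipase relatives, the gland mucin Muc6 rose from 5.02, 5.34 and 5.46 to 6.05, 7.98 and 9.20 (2.48 ± 0.21). The other rises were under 1 on the log2 scale, such as Gkn3 (0.59 ± 0.18), Anxa10 (0.41 ± 0.10) and Cldn18 (0.40 ± 0.09). The gastric mucin Muc5ac (-0.13 ± 0.09) and Tff2 (0.07 ± 0.12) did not pass, and neither did the pancreatic lipase cofactor Clps (0.29 ± 0.20). In the fit with the smooth muscle covariate 3 of the 15 passed.

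The absorptive surface of the colon went the other way. Of 19 surface colonocyte genes, 15 fell and 2 rose (median -1.21), and the list mean went from 10.87 to 11.07 in untreated colon to 9.02 to 10.10 in tumors. Besides Aqp8, Slc26a3, Tgm3 and Car4, the sulfate carrier Slc26a2 fell 5.68-fold, the butyrate and lactate carrier Slc16a1 by 1.78 ± 0.09 and guanylin, Guca2a, by 1.73 ± 0.18. The sodium-proton exchanger Slc9a3 was an exception with a rise of 1.38 ± 0.33, and uroguanylin, Guca2b, rose by 0.71 ± 0.24; with the smooth muscle covariate Slc9a3 stood at -0.59 and neither passed. Structural genes changed less, with villin, Vil1, lower by 0.36 ± 0.07.

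Promoters of the surface list were searched for the core of Cdx factors, TTTATNG or CNATAAA, since Cdx proteins are known to drive colonocyte genes. Matches were found in 3 of 18 promoters, or 16.7%, against 9.8% of all promoters; in 2 of the 3, Krt20 and Tgm3, the word is CTATAAA, which also holds the letters of a TATA box. The stretch of Tgm3 lies at chr2:130012281-130012339, plus strand, and that of Ceacam20, an adhesion protein of the brush border, at chr7:19965196-19965262, plus strand (RefSeq, GRCm38.p6), shown 5′ to 3′ with the match in capitals:
Tgm3: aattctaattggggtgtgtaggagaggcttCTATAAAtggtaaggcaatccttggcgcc
Ceacam20: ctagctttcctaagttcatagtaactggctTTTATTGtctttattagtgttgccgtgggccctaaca
Tgm3 fell 15-fold and Ceacam20 by 1.01 ± 0.13 in tumors. Cdx1 itself fell by 1.33 ± 0.11 and Cdx2 by 0.71 ± 0.23.

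Other factors of epithelial identity also fell. Vdr, the vitamin D receptor, fell by 1.86 ± 0.10, Klf4 by 1.70 ± 0.11, Hnf4g by 1.25 ± 0.14 and Hnf4a by 0.75 ± 0.07. Of the 16 factors 8 were lower and 4 higher. Sox21 rose 5.32-fold and the small-intestinal homeobox gene Isx by 1.92 ± 0.34. Elf3 (-0.10 ± 0.09), Gata6 (-0.12 ± 0.06) and Pparg (-0.22 ± 0.13) did not pass. With the smooth muscle covariate 7 of the 16 were lower and 1 higher.

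Electrogenic sodium uptake, the aldosterone-driven function of distal colon, had 10 of 12 listed genes lower and 0 higher (median -1.55). The mineralocorticoid receptor Nr3c2 fell by 1.64 ± 0.11, Hsd11b2, the enzyme that protects it from glucocorticoids, 4.6-fold, and the channel subunit Scnn1a by 1.47 ± 0.11. The other subunits took a different course. Scnn1g stood 1.09 higher in AOM+DSS colon and then 1.78 lower in tumors than there, ending 0.69 ± 0.27 below untreated colon, a difference that did not pass without tumor replicate 6 (-0.59). Scnn1b was 0.63 higher and then 0.70 lower, with no difference that passed between tumor and untreated colon (-0.07 ± 0.17). The proton-potassium pump Atp12a fell by 1.72 ± 0.24 and the potassium channel Kcnk5 by 2.15 ± 0.14. Under the smooth muscle covariate 6 of the 12 were lower (median -0.64).

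Detoxification enzymes had the lowest list median, -1.83, with 14 of 20 lower and 1 higher; their mean was 8.85 to 9.16 in untreated colon and 6.49 to 7.96 in tumors. Beside the genes already given, the carboxylesterase Ces2a fell 9.32-fold, Cyp2s1 6.03-fold and Gstm3 5.84-fold. Alcohol dehydrogenase Adh1 fell by 1.83 ± 0.13. Gsta4, a glutathione transferase for lipid aldehydes, was the member that rose (0.73 ± 0.15). Within families looked at after values were seen, 8 of 10 Cyp2d genes and 5 of 15 Cyp2c genes fell and 0 rose.

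Secretory lineages were lower, but not evenly. Of 16 goblet cell genes 10 fell and 1 rose (median -0.79): the channel Best2 by 1.67 ± 0.21, the lectin Zg16 by 1.60 ± 0.24 and the lineage factor Atoh1 by 1.35 ± 0.13. The main mucin, Muc2, was at a mean difference of -0.08 ± 0.09 and did not pass, nor did the factor Spdef (-0.20 ± 0.16), and Spink4 rose by 0.83 ± 0.13. Of 17 enteroendocrine genes 12 fell and 2 rose (median -1.03). Insl5, a peptide hormone of the distal colon, went from 10.19, 10.56 and 11.02 to 6.00, 7.31 and 8.99 (8.89-fold), proglucagon, Gcg, fell 5.73-fold, somatostatin, Sst, 4.26-fold and peptide YY, Pyy, 4.22-fold. Secretin, Sct, and cholecystokinin, Cck (-0.08 ± 0.11 and -0.24 ± 0.14), did not pass.

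Tuft cell genes showed no common course: 4 of 11 fell, 1 rose and the median was -0.06. The member that rose, the actin-binding protein Avil, went from 5.94, 6.28 and 6.42 to 8.19, 9.41 and 10.03 (8.77-fold). The 4 that fell were Dclk1, Gnat3, Rgs13 and Trpm5. Trpm5 changed by -0.26 ± 0.11, but did not pass without untreated replicate 4 (-0.20) or tumor replicate 6 (-0.27). Pou2f3 (-0.00 ± 0.12) and Il25 (-0.16 ± 0.08) did not pass. In knockout tumors 6 of the 11 fell and 1 rose (median -0.24), against 23.7% and 23.6% of all genes. Avil is also made by other cells, and its source was not tested. In the fit with the smooth muscle covariate 0 of the 11 were lower and 1 was higher.

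Genes of oxidative metabolism were mostly lower. Of 17 genes of fatty acid oxidation and ketogenesis 16 fell and 1 rose (median -0.83), among them Acsf2 (-1.63 ± 0.12), Acss1 (-1.54 ± 0.12), Acaa2 (-1.16 ± 0.09) and the carnitine transferase Cpt1a (-1.13 ± 0.07), the gatekeeper of mitochondrial uptake. Of these 17, 12 were already lower in AOM+DSS colon, against 10.5% of all genes. In oxidative phosphorylation 17 of 19 fell with a median of -0.45, the lowest being Uqcrfs1 (-0.62 ± 0.07); Ndufa4 alone rose (0.58 ± 0.05). Glycolysis had 3 higher and 5 lower of 13, with the lactate exporter Slc16a3 up by 1.68 ± 0.13 and the muscle isoform Pfkm down by 1.26 ± 0.10; with the smooth muscle covariate 1 was higher and 5 lower.

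All 19 genes of DNA replication and mitosis rose, by a median of 0.64, and all 19 of ribosome biogenesis rose, by 0.53. The topoisomerase Top2a rose by 0.96 ± 0.14, the helicase subunit Mcm4 by 0.93 ± 0.11 and Mki67 by 0.29 ± 0.11. Heatr1, a factor of small-subunit assembly, rose by 0.87 ± 0.08. These changes were smaller than those of the Wnt list, and in AOM+DSS colon 0 of the 19 replication genes passed. With the smooth muscle covariate 0 of the 19 replication genes passed (median 0.18) and 2 of the 19 ribosome biogenesis genes (median 0.20). The rise of Mki67 also did not pass without tumor replicate 6 (0.28).

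Growth factor genes were mixed. In the EGF family 6 of 12 rose and 4 fell: the ligands Nrg1 (1.87 ± 0.17), Ereg (1.34 ± 0.28) and Tgfa (0.90 ± 0.11) and the receptor Egfr (0.49 ± 0.07) were higher, and the receptors Erbb2 (-0.59 ± 0.10) and Erbb3 (-0.55 ± 0.09) lower. In the BMP pathway Bmp7 rose 4.25-fold, while Bmp3 fell 3.65-fold, Bmp2 3.15-fold and the antagonist Chrdl1 4.34-fold. Prostaglandin genes had 3 higher and 8 lower of 13. Ptgs2, the inducible cyclooxygenase, rose by 1.84 ± 0.27, and the genes that clear prostaglandins, Hpgd and the transporter Slco2a1, both fell by 1.66, with SE of 0.14 and 0.10. Under the smooth muscle covariate 3 EGF family genes were higher and 2 lower, 4 BMP genes higher and 2 lower, and 1 prostaglandin gene higher and 4 lower.

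Inflammatory genes were high in tumors. Of 20 cytokines and chemokines 14 rose and 0 fell (median 1.58). Il1b stood at 5.59, 6.47 and 6.86 in untreated colon, 6.54, 9.84 and 10.58 in AOM+DSS colon and 9.61, 10.73 and 11.39 in tumors (19.2-fold). Il23a, a subunit of interleukin-23, was at 4.67, 5.05 and 5.21 in untreated colon, 4.82, 5.08 and 5.36 in AOM+DSS colon and 7.91, 8.27 and 8.72 in tumors. The pair differed in course, since Il1b had 69.6% of its tumor change in AOM+DSS colon and Il23a 2.87%. Ifng (-0.06 ± 0.08), Il10 (-0.06 ± 0.07) and Il22 (0.09 ± 0.06) did not pass. In the fit with the smooth muscle covariate 7 of the 20 passed (median 0.76).

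Of 12 epithelial alarm genes 9 rose and 1 fell (median 2.19). Lcn2, which binds bacterial iron carriers, rose by 3.93 ± 0.23, Nos2 by 3.31 ± 0.34 and S100a8 by 2.39 ± 0.35. The transporter of secreted antibodies, Pigr, fell by 0.76 ± 0.07. Neutrophil markers, with which S100a8 and S100a9 are shared, had 11 of 14 higher and 1 lower, and their mean ran from 5.55 to 5.83 in untreated colon, 5.69 to 7.91 in AOM+DSS colon and 6.32 to 8.07 in tumors; their part in the alarm genes was not tested. With the smooth muscle covariate 1 of the 14 neutrophil genes was higher (median 1.06, against 1.89), and 3 of the 12 alarm genes were higher and 2 lower (median 0.94).

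Mast cell genes rose in 9 of 10 cases (median 1.37). Mcpt1, a protease of mucosal mast cells, stood at 4.21, 4.81 and 5.62 in untreated colon, 5.30, 7.36 and 8.68 in AOM+DSS colon and 6.79, 9.58 and 10.88 in tumors. Mcpt2 rose 20.2-fold and Cpa3 7.38-fold. The receptor Kit, which interstitial cells of Cajal in the muscle layer share, was the member that fell (-0.97 ± 0.11).

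Macrophage genes rose in 11 of 13 cases by a median of 0.74, close to the 0.67 already seen in AOM+DSS colon. C1qb rose by 0.99 ± 0.11 and Fcgr1 by 1.19 ± 0.16. The scavenger receptor Cd163 broke from this, at 6.39, 6.65 and 7.00 in untreated colon, 6.84, 7.42 and 7.71 in AOM+DSS colon and 5.05, 5.45 and 5.62 in tumors. It was highest in AOM+DSS colon and lowest in tumors, with no overlap between tumors and either other group. Under the smooth muscle covariate 6 of the 13 macrophage genes were higher and 1 lower (median 0.62).

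B cell genes were highest in AOM+DSS colon. Of 10 measured, 0 passed between tumor and untreated colon (median -0.25), although 9 were higher in AOM+DSS colon than in untreated colon and all 10 lower in tumors than in AOM+DSS colon. Ms4a1, which encodes CD20, stood at 5.14, 6.15 and 7.78 in untreated colon, 5.64, 8.41 and 9.43 in AOM+DSS colon and 5.46, 5.81 and 8.15 in tumors, with overlap among all 3 groups. MHC class II genes were likewise highest there, with 9 of 9 higher in AOM+DSS colon, 7 of 9 lower again in tumors and 0 passing overall. Interferon targets were higher in tumors: 10 of 13 type I genes (median 0.95, against 1.40 in AOM+DSS colon) and 14 of 16 interferon-gamma genes (median 1.05 and 1.04) passed. In the fit with the smooth muscle covariate 2 of the 13 and 1 of the 16 passed, with a median of 0.71 for both lists.

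All 12 smooth muscle genes fell in tumors, by a median of 1.64 in size, and 0 of 12 passed in AOM+DSS colon. Acta2 had a median of 13.30 in untreated colon and 12.41 in tumors, with no overlap, and the filament protein Synm fell 4.72-fold. Enteric neuron and glia genes were lower in 9 of 11 cases, such as Snap25 of the synapse (5.56-fold) and the neuropeptide Vip (2.92-fold). The part of muscle and nerve transcripts in other falls was not tested. The smooth muscle mean separates tumors from untreated colon, so the covariate cannot tell that part from the tumor change. Under this covariate 3 of the 11 neuron and glia genes were lower and 1 higher. Fibroblast genes were split, with 4 of 14 higher and 6 lower (median -0.09), and of 12 endothelial genes 3 were higher and 2 lower. With the smooth muscle covariate the fibroblast median turned to 0.69, with 6 higher and 0 lower, and 2 endothelial genes were higher and 0 lower.

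Posterior homeobox genes also differed, with 4 of 6 lower in tumors and 0 higher. Hoxb13 fell by 1.07 ± 0.14 and Hoxd13 by 1.55 ± 0.57, which did not pass without tumor replicate 7 (-1.08) or 6 (-1.39) or with the smooth muscle covariate (0.33). The list mean was 8.50 to 9.09 in untreated colon and 6.67 to 8.89 in tumors, so some tumors lay at the level of untreated colon. In knockout mice 2 of the 6 fell (median -0.26). Under the smooth muscle covariate the fl/fl median turned to 0.64, with 1 higher and 1 lower.

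**Figure D2:**
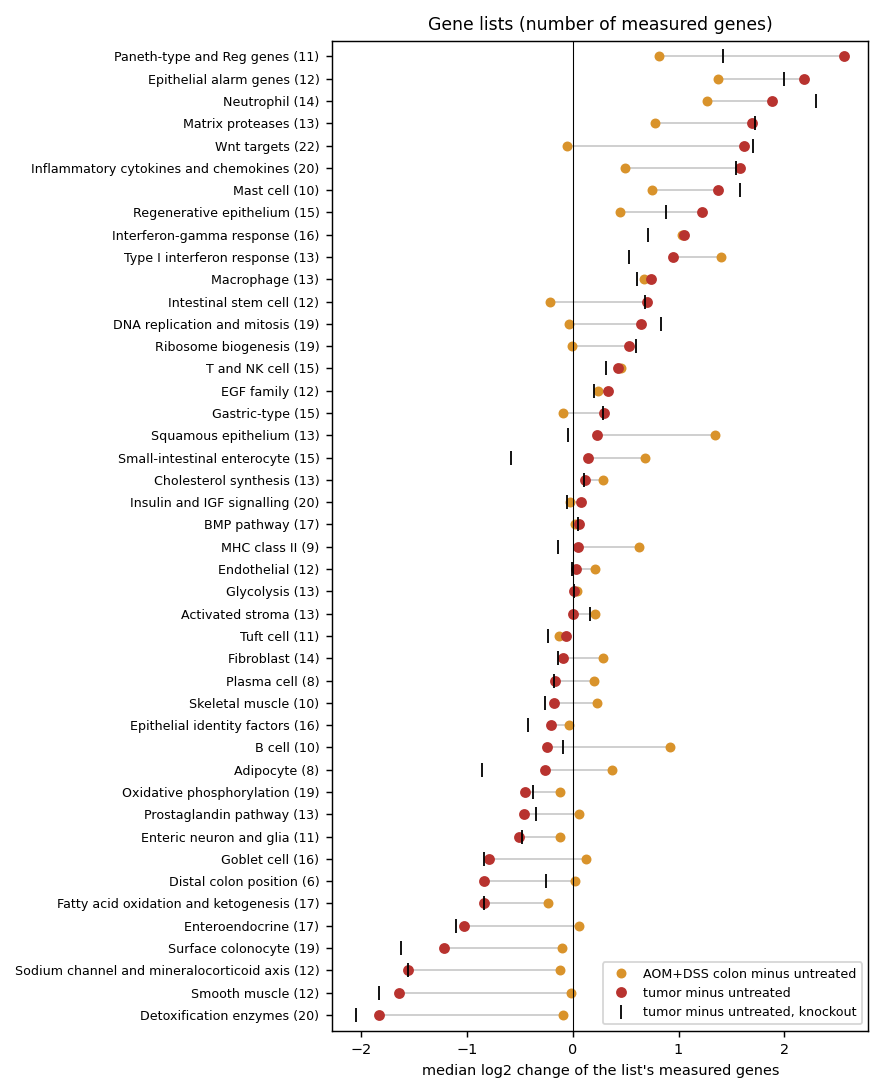
Median log2 change of each of 44 gene lists: orange points, AOM+DSS minus untreated colon of fl/fl mice; red points, tumor minus untreated colon of fl/fl mice; black ticks, tumor minus untreated colon of knockout mice. Wnt targets moved in tumors (1.62) and not in AOM+DSS colon (-0.06), B cell genes moved in AOM+DSS colon (0.92) and lay at -0.25 in tumors.

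The AOM+DSS colon lay much nearer to untreated colon than to the tumors. Between untreated and AOM+DSS colon 5044 genes passed (22.7%), and between AOM+DSS colon and tumors 9143 (41.2%; 4661 higher, 21%, and 4482 lower, 20.2%). Of the 671 genes that rose at least 2-fold in tumors, the median gene had 21.7% of its change in AOM+DSS colon (quartiles 4.21% and 48.7%), and 159 had over 50%. Of the 676 that fell, the median was 12.5% (quartiles 1.15% and 24%), and 14 had over 50%. These shares use the same untreated samples in both differences.

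Genes were sorted by whether they passed at both steps, from untreated to AOM+DSS colon and from there to tumors. Stepwise genes numbered 723 higher (3.26%) and 570 lower (2.57%). Reversed genes numbered 871 that were higher and then lower (3.93%) and 491 that were lower and then higher (2.21%). A further 3447 rose and 3041 fell at the tumor step only, 1121 rose and 1268 fell at the AOM+DSS step only, and 10648 passed at neither. Both steps contain the AOM+DSS arrays, with opposite sign, so an error in those arrays moves a gene toward reversal. Without AOM+DSS replicate 7 the 4 counts were 629, 472, 750 and 373, and without AOM+DSS replicate 4 they were 614, 464, 738 and 417. After a shift of all arrays to 1 median the lower-then-higher class held 915 genes. Asking for a 2-fold change at each step left 36, 9, 33 and 0 genes.

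**Figure D3:**
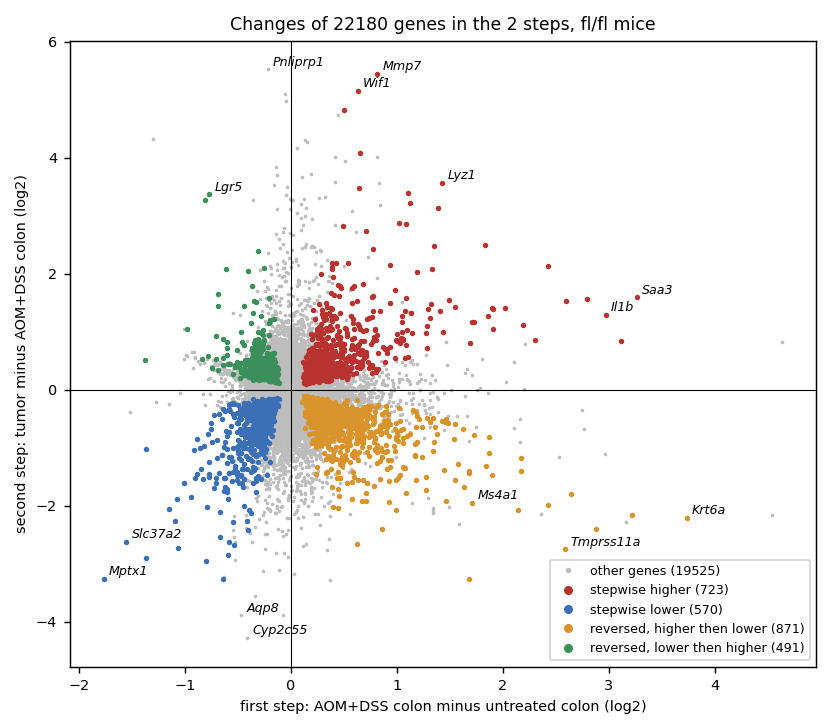
Each point is 1 of 22180 genes; the horizontal axis is AOM+DSS minus untreated colon and the vertical axis tumor minus AOM+DSS colon, in log2 units, fl/fl mice, with colours for the 4 classes that passed at both steps. Mmp7 and Wif1 lie high and within 1 of 0 on the horizontal axis, Saa3 and Il1b far to the right, and Mptx1 at the lower left.

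The leading stepwise rises, ranked by the smaller of both steps, were Mcpt1, Mcpt2, Saa3, Plet1, Cxcl5, Slc7a11, Lyz1 and Cxcl9. Saa3, an acute-phase protein, stood at 4.75, 5.47 and 5.86 in untreated colon, 6.37, 8.95 and 11.01 in AOM+DSS colon and 9.55, 10.43 and 11.17 in tumors, so 67.2% of its change was present in AOM+DSS colon. Cxcl5, a neutrophil chemokine, rose 2.59 at the AOM+DSS step and 1.53 at the tumor step. Slc7a11, the cystine importer, split evenly with 1.49 and 1.55. AOM+DSS samples were widely spread for all 3 genes and reached into the range of the tumors. In the fit with the smooth muscle covariate 7 of these 8 genes left the class (all but Lyz1); of them, only Cxcl9, a target of interferon-gamma, also lost its call between untreated colon and tumors (1.34). Over the 4 classes 21 of the 32 leading genes left their class under this covariate, among them Slc37a2, St8sia5 and Itih2 of the stepwise falls, Ms4a1 and the other 7 leaders of the higher-then-lower class, and Bex4, Cyp11a1 and Gstm7.

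Stepwise falls were led by Mptx1, Slc37a2, Trpm6, Naaladl1, Hao2, St8sia5, Itih2 and Zan. Trpm6, the apical magnesium channel, stood at 9.80, 10.28 and 10.66 in untreated colon, 8.44, 9.12 and 9.95 in AOM+DSS colon and 6.37, 7.03 and 7.81 in tumors. Slc37a2 fell by 1.55 and then by 2.62, and Hao2 by 1.07 and then by 2.73. With the squamous marker mean as a covariate, an alternative chosen after seeing the data, Hao2 left the class. St8sia5, a sialyltransferase, had the larger part of its fall, 57.2%, in AOM+DSS colon. The tumors did not overlap AOM+DSS colon for Trpm6 or Slc37a2.

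The 8 leading genes that rose and then fell were Tmprss11a, Tmprss11d, Krt6a, Tmprss11g, Krt6b, Tmprss11b, Ms4a1 and Calcb. Tmprss11a, a serine protease of stratified epithelium, stood at 4.19, 4.52 and 8.80 in untreated colon, 4.55, 8.39 and 10.14 in AOM+DSS colon and 4.04, 4.63 and 8.91 in tumors. Each group thus held samples at both ends. The same samples carried the squamous marker mean given above. With that mean as a covariate, an alternative chosen after seeing the data, 7 of these 8 genes left the class, all but Ms4a1. Krt6a belongs to the squamous list itself, so its loss is partly built in. With this covariate the class held 578 genes. Krt6a also left it without AOM+DSS replicate 7, replicate 4 or tumor replicate 6 or 7. Calcb, which encodes a calcitonin gene-related peptide, stood at 6.62, 10.19 and 11.24 in AOM+DSS colon against 6.58, 6.90 and 8.23 in untreated colon.

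Genes that fell and then rose were led by Bex4, Bex1, Lgr5, Cyp11a1, Smpx, Hunk, Gstm7 and Rnf32. Bex1, a small adaptor known from neural tissue, stood at 6.31, 6.66 and 6.90 in untreated colon, 5.37, 5.89 and 6.22 in AOM+DSS colon and 8.36, 9.22 and 9.59 in tumors, with no overlap among the 3 groups. Cyp11a1, the enzyme that starts steroid synthesis, overlapped again in untreated colon and tumors: 6.45, 7.01 and 7.67, then 6.06, 6.42 and 6.71, then 6.86, 7.34 and 7.68, with a tumor difference of 0.23 ± 0.14 that did not pass. The kinase Hunk (0.76 ± 0.12) and Rnf32 (1.47 ± 0.15) ended above untreated colon, whereas Bex4 (0.07 ± 0.15) and Gstm7 (0.23 ± 0.13) did not pass. Of the 491 genes of the class, 118 ended higher in tumors than in untreated colon, 7 lower and 366 neither; of the 871 that rose and then fell, 53 ended higher, 239 lower and 579 neither.

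**Figure D4:**
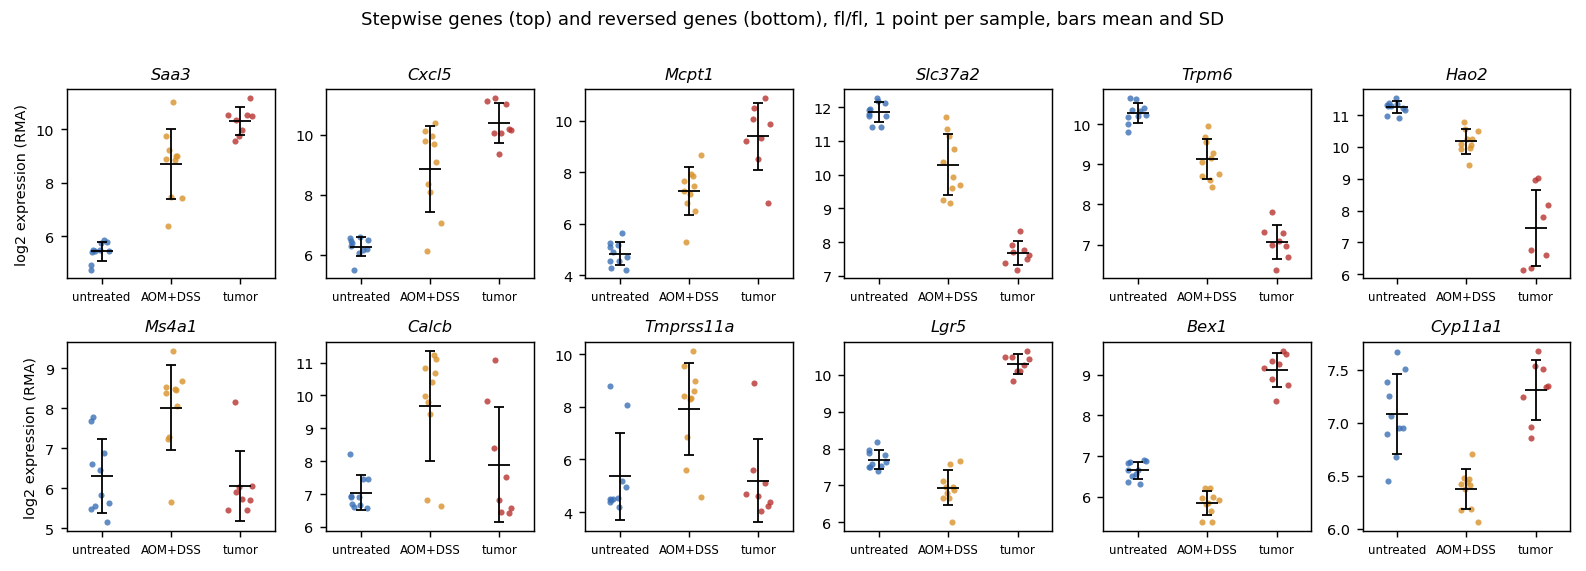
Log2 expression by sample of 6 stepwise genes (top row) and 6 reversed genes (bottom row) in untreated colon, AOM+DSS colon and tumors of fl/fl mice; each point is 1 sample and bars give the mean and SD. Lgr5 and Bex1 are lowest in AOM+DSS colon and highest in tumors, and Tmprss11a and Ms4a1 have both low and high samples in each group.

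The insulin receptor family, the subject of the series, changed in these fl/fl tumors. Insr stood at 8.70, 9.01 and 9.16 in untreated colon, 8.28, 8.51 and 8.94 in AOM+DSS colon and 7.70, 8.20 and 8.50 in tumors, a fall of 0.79 ± 0.10 (adjusted p = 3.32e-09) in which every tumor lay below every untreated sample. By the exact two-sided permutation test over the 18 samples p was 2.29e-05, the smallest the 43758 arrangements can give, and 9.16e-05 after Benjamini-Hochberg adjustment over 4 tests. The fall did not pass with the smooth muscle covariate (-0.48). The receptor Igf1r rose by 0.44 ± 0.10 (exact permutation p = 0.00327, adjusted 0.00573), with overlapping groups. The adaptor Irs2 fell by 0.42 ± 0.14 (exact permutation p = 0.0043, adjusted 0.00573), and Irs1, at 0.20 ± 0.09, did not pass (exact permutation p = 0.0742). Irs2 stood at 0.10 with the smooth muscle covariate.

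Of 20 genes of insulin and IGF signalling 8 rose and 8 fell. The ligand Igf1 went from 6.86, 7.05 and 7.33 through 7.42, 8.11 and 8.96 to 8.44, 8.62 and 8.78 (1.53 ± 0.13), with all tumors above all untreated samples. The binding proteins went both ways: Igfbp4 rose by 1.35 ± 0.11 and Igfbp5 by 1.28 ± 0.16, and Igfbp6 fell by 1.49 ± 0.16 and Igfbp2 by 1.21 ± 0.20. Under the smooth muscle covariate 7 of the 20 were higher and 1 lower. The regulatory subunit Pik3r1 fell by 0.55 ± 0.05 and the kinases Akt1 and Akt2 rose by 0.37 ± 0.05 and 0.50 ± 0.06.

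Tumors of knockout mice were compared with their own untreated colon, so the group means share no arrays with the fl/fl comparison. Both comparisons take each gene's spread from the same model of all arrays, so their calls are not fully independent. There 10486 genes passed (47.3%; 23.6% higher and 23.7% lower). Of the 1347 genes changed at least 2-fold in fl/fl tumors, 1331 passed in the same direction in knockout tumors (658 of 671 rises and 673 of 676 falls). Across the 22180 genes, which are not independent replicates, the changes in both genotypes correlated with r = 0.96 (Pearson) and rho = 0.88 (Spearman). Mmp7 rose by 6.26 in fl/fl and 5.88 in knockout tumors, Notum by 5.04 and 5.14, and Aqp8 fell by 4.36 and 4.31.

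The difference between the genotypes passed for 0 of 22180 genes (0%) by limma. At an unadjusted p under 0.05 there were 983, where the threshold alone gives 1109. The smallest p was that of Ly6m, a Ly6 family gene, whose tumor change was 0.94 ± 0.26 in fl/fl and -0.83 in knockout mice (adjusted p of the difference = 0.191). Next was Clca4a, a relative of Clca4b, at 0.03 ± 0.24 and -1.54 (adjusted p = 0.214). Both were among the genes that rose in AOM+DSS colon of fl/fl mice and fell again in tumors. The Insr change was -0.79 in fl/fl and -0.51 in knockout mice, and the difference of -0.28 did not pass.

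The classes were also formed in knockout mice alone. There 885 genes were stepwise higher, of which 478 were so in fl/fl mice (66.1% of the fl/fl class and 54% of the knockout class), and 906 were stepwise lower, with 391 shared (68.6% and 43.2%). For the higher-then-lower class the count was 1365 with 686 shared (78.8% and 50.3%), and for the lower-then-higher class 880 with 276 shared (56.2% and 31.4%).

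**Figure D5:**
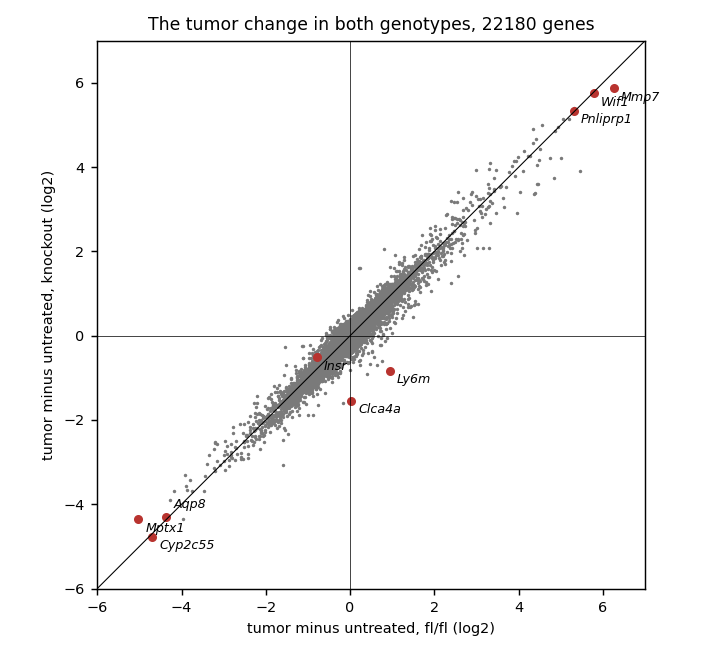
Change from untreated colon to tumor in fl/fl mice (horizontal) and in knockout mice (vertical), log2 units, 1 point per gene, with the line of equal change. Most genes lie along the line, from Mptx1 and Cyp2c55 at the lower left to Mmp7 and Wif1 at the upper right; Ly6m and Clca4a, the genes with the smallest p for the difference, lie off it and did not pass.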

How the data were processed

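RNA of 57 mouse colon and tumor samples was hybridised to whole-transcript arrays. The authors deposited log2 values summarised by RMA, per the submitters' processing notes. No RMA version is stated there. Arrays carry no read depth, and their number limits the precision. Of 41345 probe sets, 23521 had 1 gene symbol in the platform annotation, which can be old, 1814 had several and 16010 had none. The brightest probe set stood for each of 22180 genes.

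A linear model with all 6 genotype and treatment groups was fitted to all genes with limma 3.58.1 in R 4.3.3 (lmFit, eBayes), with Benjamini-Hochberg adjustment, after it was tested on simulated data. Of 664 gene list entries 615 were measured. Members and lists were chosen with earlier results of these data known. Named were the 15 largest passing rises and falls, the 8 leading genes of each class by the smaller step, up to 6 per list, the 10 with the smallest p for the genotype difference, and receptor genes of the insulin family; other names, and gene families, were chosen after values were seen. The main model did not pair samples by replicate number, since the labels do not say that it marks a shared mouse. P-values measure the spread between these samples. Of 18 other settings tried, 6 were chosen after seeing the data.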

Additional observations from a re-analysis of the deposited data

Results flagged for a closer look

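The following values lay far from the other samples of their group by Dixon's test; 26 of 237 groups of values tested were so, where chance alone gives about 1 in 20. In untreated replicate 4, Pnliprp1 was low at 5.12 and Cyp2c68 at 9.25, the detoxification list mean was low at 8.85, and the means of type I interferon genes (7.58) and macrophage genes (8.41) were high. The prostaglandin list mean was low in untreated replicate 8 (8.00), skeletal muscle genes were high in untreated replicate 1 (6.24) and small-intestinal enterocyte genes in untreated replicate 10 (8.20).

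AOM+DSS replicate 4 was high for Prox1 (7.74), Spock2 (7.57), matrix proteases (8.32) and endothelial genes (8.45), and AOM+DSS replicate 8 for Mt4 (6.94). AOM+DSS replicate 7 was high for Prkg2 (7.38), Paneth-type and Reg genes (10.49), detoxification enzymes (9.66) and small-intestinal enterocyte genes (10.48).

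Among tumors, replicate 7 was low for Prox1 (10.65) and Mt4 (7.34). Replicate 6 was high for Slc6a4 (7.19), tuft cell genes (6.29) and small-intestinal enterocyte genes (8.82). B cell genes were high in tumor replicate 3 (7.65), activated stroma genes in replicate 5 (7.97), adipocyte genes in replicate 2 (7.32) and squamous genes in replicate 4 (8.78).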

How the results depend on the processing

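The count of genes that passed between tumor and untreated colon was 10291 with the replicate number as a block, 9636 without dim genes, and 9674 to 10223 when 1 library was left out (lowest without tumor replicate 6). This replicate block is not taken as a pairing, since the labels do not say that a number marks a shared mouse. Between tumors and AOM+DSS colon 1 of 8 same-number correlations was over 0.1. In 0 of the 8 was the sample of the same number the closest match. The lower-then-higher class held 915 genes after a shift to 1 median and 845 after further quantile normalization. At an adjusted p of 0.01 at both steps the classes (stepwise higher, stepwise lower, higher then lower, lower then higher) held 364, 268, 470 and 155 genes, and with a 2-fold change at both steps 36, 9, 33 and 0. With the squamous mean as a covariate, added after seeing the data, the reversed classes held 578 and 259, and 1 genotype difference passed (Gsta4). With the smooth muscle mean, also added, 2909 genes passed (1568 higher, 1341 lower) and the classes held 186, 171, 172 and 111; the mean separates the groups compared. Under it these changes turned sign: Irs2 0.10, Myl9 0.10, Mfap5 0.20, Dpt 0.75, Col6a1 0.21, Lum 0.83, Tek 0.24, Flt1 -0.13, Car3 2.01, Ckm 0.33, Hoxd13 0.33, Hoxd10 0.94, Hoxd12 1.503, Rbp2 0.063, Krt20 0.032 and Slc9a3 -0.59. Myl9 belongs to the smooth muscle list, so the covariate contains it. The cause of these turns was not tested. The 30 genes that changed most kept their calls under all 18 alternatives.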
